A study of Mus musculus with 6 samples.

Results

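Wnt proteins are secreted lipid-modified ligands that bind Frizzled receptors on the cell surface. Together with the coreceptors Lrp5 and Lrp6 they stabilize β-catenin, which then drives transcription with TCF and LEF factors, whereas signaling through Ror1, Ror2 and Ryk does not need β-catenin. In endothelium the pathway is best known for the growth of retinal and brain vessels and for the barrier of the latter. The 34 mouse genes examined here are the 19 Wnt ligands, the 10 Frizzled receptors and 5 coreceptors or kinase receptors (Lrp5, Lrp6, Ror1, Ror2 and Ryk). They were found by gene name among the non-control spots of the arrays, where 42 of 55681 probes, each printed on 1 spot, named 1 of the 34 genes out of 21732 named genes.

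RNA came from 1G11 cells, a mouse microvascular endothelial line of strain C57BL/6NCrLBR. One derivative carried no added enzyme (1G11-mock) and the other overexpressed superoxide dismutase 3, an extracellular enzyme that removes superoxide (1G11-SOD3). N202.1A cells, a mouse mammary cancer line, had conditioned the medium in which both lines spent 6 h, so no sample shows either line without tumor cell products, and the vector, promoter and clonality of the lines are not given in the sources used here. Each line was measured on 3 single-color arrays, 1 per biological replicate.

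The arrays showed between 34.2% and 43.8% of their 59305 non-control spots well above background and 0 saturated spots. Values are log2 intensities after background correction and quantile normalization, and levels of different probes are not comparable. A probe was called at an adjusted p under 0.05 (limma, Benjamini-Hochberg over all probes) and more than 2-fold. Sod3 stood at 13.61, 12.66 and 9.86 on the 1G11-mock arrays and at 16.37, 16.29 and 16.27 on the 1G11-SOD3 arrays, with all 3 of the latter above the former. All 1G11-SOD3 arrays lay in one row of the slide and all 1G11-mock arrays in another, so slide row and cell line cannot be told apart. In a rectangle in the middle of the arrays, which holds 6606 of those spots and was known from earlier work on these data, the 2429 bright spots had a median log2 fold change of 1.10, 1G11-SOD3 minus 1G11-mock, against -0.13 for the 20296 bright spots elsewhere. Spots there are therefore given apart, and differences are also given after a position adjustment, in which a smooth surface over rows and columns was taken off each array. Among bright probes printed 10 times the spread (SD) of the difference between copies fell from 0.464 to 0.174 with it. Sod3 itself was measured in that rectangle. Its log2 fold change was 4.27 (adjusted p = 0.007906, limma), and 2.79 after position adjustment (adjusted p = 0.01624, limma).

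Of 10 endothelial markers, 3 (Eng, Esam and, with 1 of its probes, Kdr) were above background on all 3 arrays of a line. Pecam1 was so on 2 arrays of each line, and Cdh5, Erg, Tek, Tie1 and Emcn on none. No endothelial, epithelial or blood marker was called. Of 6 mesenchymal markers 5 were called higher in 1G11-SOD3, against 1.86% of all probes, and these 5 were also called higher after position adjustment. The summed linear intensity of the 6 mesenchymal probes ran from 19800 to 34330 in 1G11-mock. On the 1G11-SOD3 arrays it was 40170, 47760 and 174500, listed from lowest to highest. The highest sum was that of replicate 3, where Dcn, the marker that was not called, read 17.07 against 13.52 and 13.58 on replicates 1 and 2. The 12 endothelial marker probes summed to between 20720 and 28990 in 1G11-mock and between 14240 and 17580 in 1G11-SOD3. That sum rested mostly on Eng (log2 fold change -1.05) and 1 Kdr probe (-0.50). Esam, with its spot in the middle of the array, went the other way at 1.22, and stood at -0.36 after position adjustment. For the 7 epithelial probes the sums, from 67290 to 111900 and from 44640 to 84180, overlapped, as did those of the 6 blood marker probes, from 17740 to 24550 and from 19170 to 24300. Most of the epithelial sum came from Krt19, and most of the blood sum from 1 Itgam probe. The part of these markers in the differences below was not tested.

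Several member probes are shown because results turn on where they lie. Lrp6 and Wnt1 each had a pair of probes with unlike readouts, of which the first 30 of 60 bases are given. The upstream Fzd2 and Fzd7 probes are given whole because they are alike. Positions come from the annotation of the array, and its genome build is not stated.
Lrp6 upstream probe (A_55_P2041360), chr6:134404723-134404782, minus strand: atcgagcgcacgtcacgggagcctcctcaa
Lrp6 downstream probe (A_55_P2118391), chr6:134400440-134400499, minus strand: caaaggaaacaggaaaagaaaggcatcact
Wnt1 upstream probe (A_55_P2001033), chr15:98623276-98623335, plus strand: tgctgccacgtcagctgccgcaactgcacg
Wnt1 downstream probe (A_55_P2106911), chr15:98624201-98624260, plus strand: agtggctcctcgcccccaccaatgtagtat
Fzd2 upstream probe (A_51_P404077), chr11:102467613-102467672, plus strand: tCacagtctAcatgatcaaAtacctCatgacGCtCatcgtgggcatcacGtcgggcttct
Fzd7 upstream probe (A_51_P142107), chr1:59541367-59541426, plus strand: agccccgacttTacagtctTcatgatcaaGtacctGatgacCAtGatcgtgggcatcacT
Capitals in the last pair mark the bases at which the aligned probes differ. The Fzd2 and Fzd7 probes overlapped, with a shift of 10 bases and no gap, over 50 bases and matched at 42 of them. Of the 8 mismatches, 6 fell on the same position of each group of 3 bases. Among all 853 pairs of member probes of different genes no other pair matched at more than 28 bases. The Fzd2 and Fzd7 values of these probes are therefore uncertain to the extent that either transcript binds the other probe, which was not tested.

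A larger share of the Wnt receptors than of the Wnt ligands was detected. A gene was counted as above background in a cell line when 1 of its probes was well above background on all 3 arrays of it. Of the 34 genes 11 were so in both lines, 12 in 1G11-mock and 13 in 1G11-SOD3. Among the 19 ligands only Wnt1, Wnt4 and Wnt5b passed in both lines, and Wnt9a passed in 1G11-SOD3 alone, on 3 arrays against 0 of 1G11-mock. By contrast 6 of 10 Frizzled genes passed in both lines (Fzd1, Fzd2, Fzd4, Fzd6, Fzd7 and Fzd8), and Fzd5 passed in 1G11-mock. Lrp5 and the receptor Ryk, whose kinase domain is inactive, passed in both lines, and Lrp6 passed in 1G11-SOD3. The downstream Lrp6 probe was also above background on 2 arrays of 1G11-mock, and the downstream Fzd5 probe on 2 arrays of 1G11-SOD3. Both Lrp6 spots lay in the middle of the array, as did the Fzd7 probe that passed in both lines. No difference in detection between the lines was tested.

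**Figure D1:**
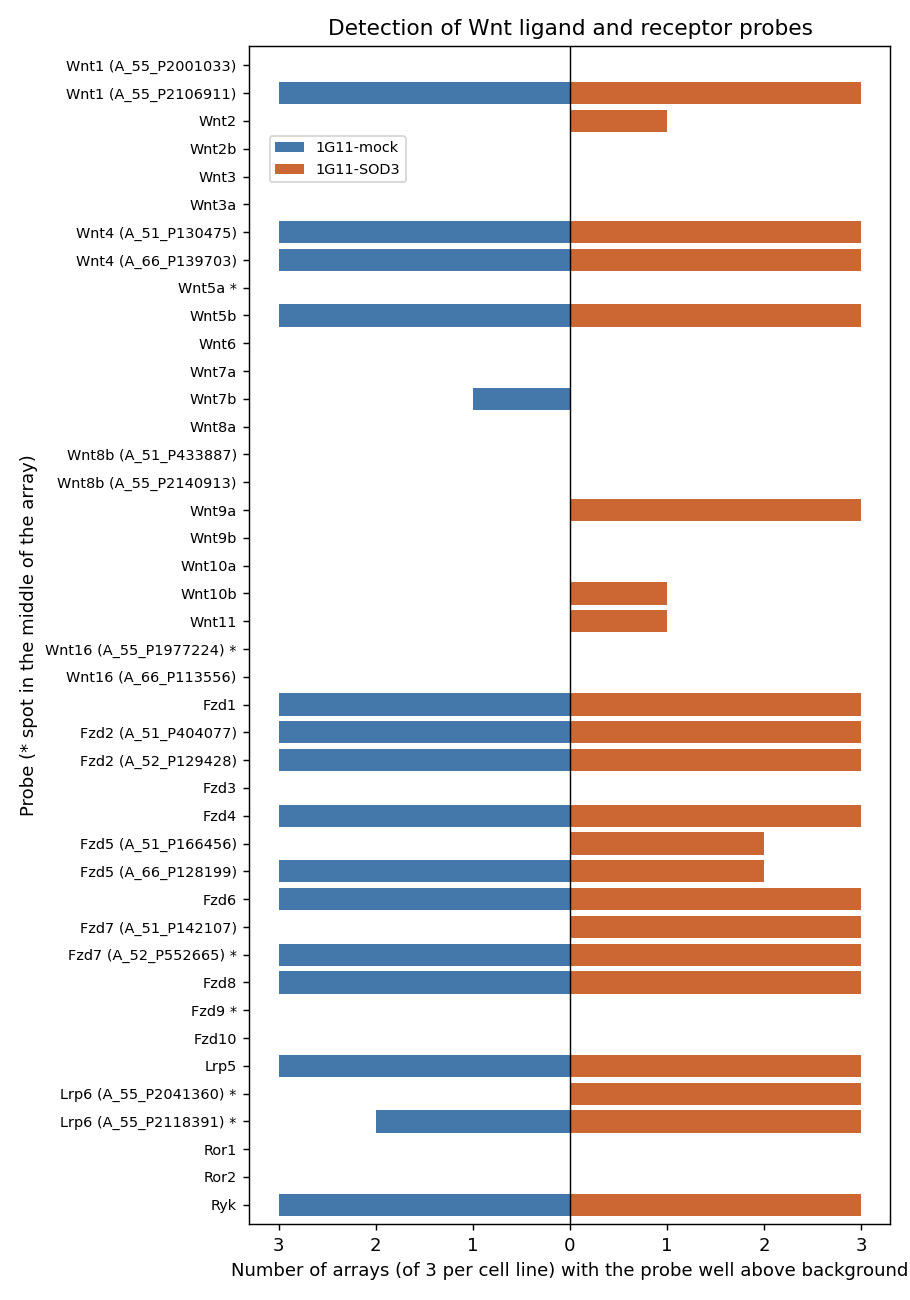
Number of arrays, of 3 per cell line, on which each of the 42 Wnt ligand and receptor probes was well above background (bars to the left 1G11-mock, to the right 1G11-SOD3; an asterisk marks a spot in the middle of the array). Most ligand probes have no bar, and 18 of the 42 probes reach 3 arrays in at least 1 line.

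Over probes, 18 of 42 (42.9%) were above background on all arrays of at least 1 line, against 35.6% of all probes on the array. Another 19 probes of 17 genes (45.2%) were above background on no array, against 54.3% of all probes. Their 16 genes without any detected probe were Wnt2b, Wnt3, Wnt3a, Wnt5a, Wnt6, Wnt7a, Wnt8a, Wnt8b, Wnt9b, Wnt10a, Wnt16, Fzd3, Fzd9, Fzd10, Ror1 and Ror2. This set holds Wnt5a together with Ror1 and Ror2, the receptor tyrosine kinases known to bind it. The only Wnt5a and Fzd9 spots and 1 Wnt16 spot lay in the middle of the array. At the Wnt5a spot the surface was -0.30, -0.59 and -1.08 in 1G11-mock and 0.62, 0.48 and 0.88 in 1G11-SOD3. Whether the place of these spots affected their detection was not tested. These 19 probes had log2 intensities between 6.15 and 8.04, and the differences of the measured values, from -0.68 to 0.44, had adjusted p values of 0.1473 (limma) or more. Unadjusted, 2 of the 19 had a p under 0.05 (limma), against 14.4% of all probes. Of the 19 probes 3 did not overlap between the lines, against 20.6% of all probes. No fold is given where both lines were below background.

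Another 4 of the 19 ligands were above background on a single array each. Wnt2, Wnt10b and Wnt11 were so on 1 array of 1G11-SOD3 and Wnt7b on 1 array of 1G11-mock. Wnt10b read 7.63, 7.10 and 6.89 on the 1G11-mock arrays and 7.97, 7.97 and 7.84 on the 1G11-SOD3 arrays. Its measured values differed by 0.72 on the log2 scale (adjusted p = 0.1822, limma), and by 0.99 with position adjustment (adjusted p = 0.079, limma). Wnt7b read 7.79, 8.30 and 8.83 against 7.53, 7.56 and 7.70, a difference of -0.71 on the log2 scale (adjusted p = 0.2535, limma). With position adjustment the Wnt7b difference was -0.02 (adjusted p = 0.9745, limma). Bright spots around it had a median log2 fold change of -0.53. Both lines had readings below background for Wnt10b and Wnt7b, so no lower limit of the fold is given. Neither probe overlapped between the lines and neither passed the test.

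Across the contrast 1 of the 42 member probes was called, an Lrp6 probe that was higher in 1G11-SOD3. Over all probes on the arrays 2.92% were called, 1.86% higher and 1.05% lower, so the share among the members was near the background. The median log2 fold change was 0.06 over the 42 member probes and -0.03 over all probes. Of the members 14 did not overlap between the lines, 8 higher and 6 lower in 1G11-SOD3, against 20.6% of all probes (10.4% higher and 10.2% lower). For the 18 probes above background on all arrays of a line these counts were 1 called and 7 without overlap, against 8.03% and 33.3% of all probes so detected. After position adjustment no member was called, against 3.77% of all probes. Among the 15 detected probes outside the middle the median log2 fold change was -0.28, and it was 1.52 among the 3 in the middle.

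**Figure D2:**
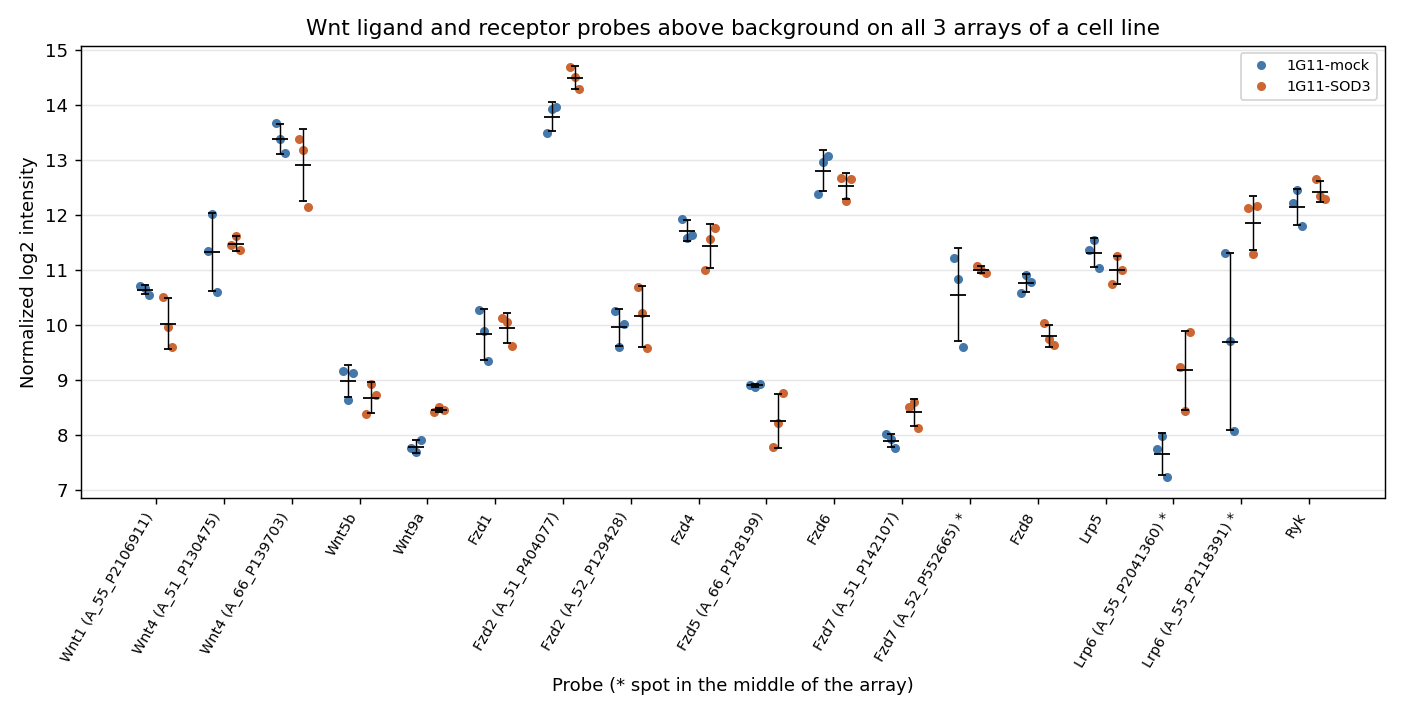
Normalized log2 intensity of the 18 member probes above background on all 3 arrays of at least 1 cell line. Points are arrays, bars the mean ± SD (n = 3 per line), and an asterisk marks a spot in the middle of the array. Fzd8 and Wnt1 lie lower, and Wnt9a and the upstream Fzd2 probe higher, on every 1G11-SOD3 array than on any 1G11-mock array, and the downstream Lrp6 probe spreads from 8.08 to 11.31 within 1G11-mock.

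Among the ligands, Wnt9a was detected in 1G11-SOD3 alone, and its difference was not called. Its probe read 7.75, 7.68 and 7.91 on the 1G11-mock arrays, none of them above background, and 8.42, 8.50 and 8.45 on the 1G11-SOD3 arrays. All 1G11-SOD3 values lay above all 1G11-mock values, and the fold was at least 1.41 (log2 fold change 0.67, 95% interval 0.21 to 1.13, adjusted p = 0.1393, limma). The spot lay outside the middle, where bright neighbors had a median log2 fold change of -0.14. With position adjustment the measured values differed by 0.89 on the log2 scale (adjusted p = 0.04365, limma), which was not called and, with 1G11-mock below background, sets no upper limit. The probe was called only when the processed signal was scaled to the 75th percentile, with a log2 fold change of 1.36 (adjusted p = 0.02139).

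Wnt1, the founding member of the family and a strong activator of β-catenin signaling, was detected by its downstream probe alone. That probe read 10.71, 10.67 and 10.54 in 1G11-mock and 10.51, 9.96 and 9.59 in 1G11-SOD3. The lines did not overlap, but the log2 fold change of -0.62 ± 0.26 (SE) did not pass the test (adjusted p = 0.3025, limma), and it was -0.15 after position adjustment (adjusted p = 0.7318). The upstream Wnt1 probe, whose start lies 925 bases away, was above background on no array and ran from 6.26 to 6.87.

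Wnt4, a ligand with roles in kidney and gonad development, was detected by both of its probes on all 6 arrays. Its upstream probe, which crosses an intron, read 11.35, 12.02 and 10.60 in 1G11-mock and 11.46, 11.62 and 11.36 in 1G11-SOD3. The downstream probe read 13.67, 13.37 and 13.12 against 13.38, 13.18 and 12.15. Both overlapped between the lines. Their log2 fold changes were 0.16 (95% interval -0.55 to 0.87, adjusted p = 0.8735, limma) and -0.48 (-1.19 to 0.22, adjusted p = 0.5529, limma). The second interval includes a 2-fold decrease. With position adjustment the log2 fold changes were -0.02 and -0.18.

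Wnt5b is a close relative of Wnt5a. Its values were 9.15, 8.64 and 9.13 in 1G11-mock and 8.38, 8.93 and 8.73 in 1G11-SOD3, which overlapped. The log2 fold change was -0.30 (95% interval -0.84 to 0.25, adjusted p = 0.6531, limma). It was 0.11 after position adjustment (adjusted p = 0.8415, limma).

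Of the Frizzled receptors, Fzd8 showed the largest decrease among all member probes and came closest to a call outside the middle. Fzd8, which binds Wnt ligands in β-catenin signaling, read 10.59, 10.91 and 10.78 in 1G11-mock and 10.03, 9.74 and 9.63 in 1G11-SOD3. Every 1G11-SOD3 value lay below every 1G11-mock value. The level was 1.94-fold lower (log2 fold change -0.96, 95% interval -1.45 to -0.47, adjusted p = 0.04496, limma), which passed the p threshold but not the 2-fold one. With any fold counted, 2 member probes (this one and the Lrp6 probe) passed, against 3.05% of all probes. Position adjustment of Fzd8 gave -0.73 (95% interval -1.29 to -0.18, adjusted p = 0.1292), and leaving out each array in turn gave -1.08 to -0.87, with adjusted p values between 0.05682 and 0.1632.

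Fzd5, the nearest relative of Fzd8, had a pair of probes that went opposite ways. The downstream probe read 8.90, 8.88 and 8.92 in 1G11-mock and 7.77, 8.22 and 8.75 in 1G11-SOD3, a log2 fold change of -0.65 (adjusted p = 0.2902, limma). The upstream probe was above background on 2 arrays of 1G11-SOD3 alone and read 7.87, 7.72 and 7.44 against 8.12, 8.16 and 8.44. Its measured values differed by 0.56 on the log2 scale (adjusted p = 0.2797, limma). Neither probe overlapped between the lines and neither passed the test. Bright spots around them had median log2 fold changes of -0.26 and 0.64, of the same sign as the probe in each case. After position adjustment the downstream probe stood at -0.20 and the upstream one at 0.11.

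Fzd1, Fzd2 and Fzd7 form one subgroup of Frizzled receptors. The upstream Fzd2 probe read 13.48, 13.93 and 13.96 in 1G11-mock and 14.70, 14.51 and 14.29 in 1G11-SOD3, which did not overlap. Its log2 fold change was 0.71 ± 0.24 (SE), with an adjusted p of 0.1671 (limma). Bright spots around it went the other way, with a median of -0.37, and position adjustment raised the difference to 0.98 (95% interval 0.47 to 1.50, adjusted p = 0.0431), just under 2-fold. The downstream Fzd2 probe, 1432 bases away, read 10.26, 9.60 and 10.01 against 10.68, 10.21 and 9.58, which overlapped, and its log2 fold change was 0.20 (adjusted p = 0.8226, limma) and, with position adjustment, 0.80 (adjusted p = 0.1102). Both Fzd2 probes thus had the same sign in both analyses, and neither was called.

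For Fzd7 the upstream probe, the one that resembles Fzd2, was above background on every 1G11-SOD3 array and on no 1G11-mock array. Mock arrays read 8.01, 7.92 and 7.76 against 8.50, 8.59 and 8.13 in 1G11-SOD3, at least 1.42-fold higher (log2 fold change 0.51, adjusted p = 0.3346, limma). With position adjustment the measured values differed by 0.52 on the log2 scale (adjusted p = 0.2035, limma). The downstream Fzd7 probe lay in the middle of the array and read 11.21, 10.84 and 9.60 in 1G11-mock and 11.07, 10.998 and 10.94 in 1G11-SOD3. Those values overlapped, and the log2 fold change of 0.45 (adjusted p = 0.6265, limma) became -0.07 with position adjustment (adjusted p = 0.904). The 1G11-mock array with the lowest value, replicate 3, was also the one with the lowest surface there, at -1.07 against 0.05 and -0.42 for replicates 1 and 2.

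The remaining detected Frizzled genes overlapped between the lines and did not pass the test. Fzd1 read 10.26, 9.88 and 9.34 in 1G11-mock and 10.13, 10.05 and 9.62 in 1G11-SOD3, a log2 fold change of 0.11 (adjusted p = 0.9073, limma). Fzd4, known as the receptor of Norrin in retinal vessels, read 11.93, 11.59 and 11.64 against 10.995, 11.56 and 11.77, a log2 fold change of -0.28 (95% interval -0.84 to 0.29, adjusted p = 0.6883, limma). Fzd6, a receptor of planar cell polarity, read 12.39, 12.96 and 13.07 against 12.67, 12.25 and 12.66, a log2 fold change of -0.28 (adjusted p = 0.6827, limma). With position adjustment these stood at 0.26, 0.02 and -0.13.

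**Figure D3:**
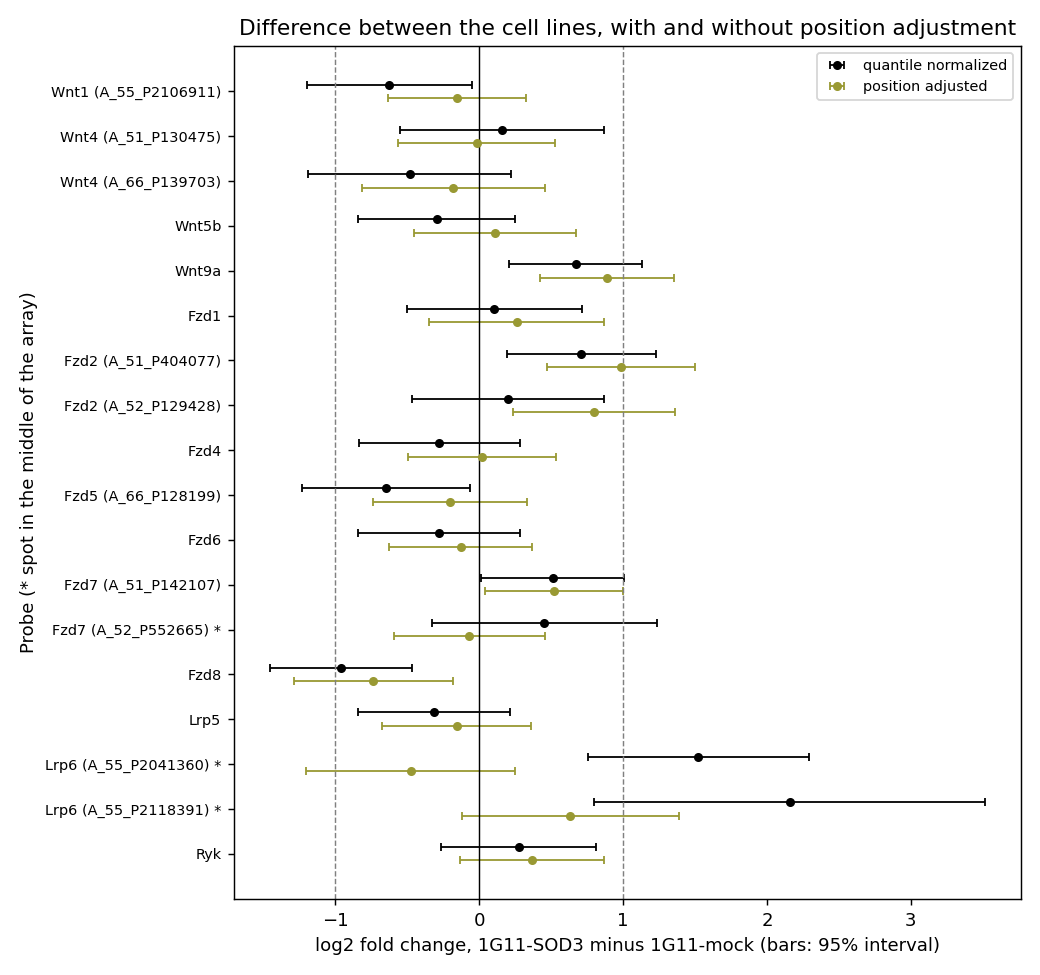
Log2 fold change, 1G11-SOD3 minus 1G11-mock, of the 18 detected member probes with its 95% interval, before (black) and after (olive) position adjustment. Dashed lines mark 2-fold, and an asterisk a spot in the middle of the array. The upstream Lrp6 probe goes from 1.52 to -0.48 and the downstream one from 2.16 to 0.63. Wnt9a, Fzd8 and the upstream Fzd2 and Fzd7 probes keep intervals on one side of 0.

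Lrp6, which carries the Wnt signal across the membrane together with Frizzled, gave the one call. Its upstream probe read 7.74, 7.98 and 7.23 in 1G11-mock, none above background, and 9.23, 8.42 and 9.87 in 1G11-SOD3, at least 2.41-fold higher (log2 fold change 1.52, 95% interval 0.76 to 2.29, adjusted p = 0.04044, limma). The downstream probe, 4283 bases away, read 11.31, 9.71 and 8.08 in 1G11-mock and 12.13, 11.28 and 12.16 in 1G11-SOD3, which overlapped by 1 value. Its log2 fold change of 2.16 ± 0.62 (SE) was larger but not called (adjusted p = 0.1014, limma). With the replicate number as a block it was called (adjusted p = 0.02993), so that 2 members were called in that fit.

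Both Lrp6 spots lay in the middle of the array, where 11.6% of probes were called higher and 0.0487% lower, against 0.646% and 1.18% of probes with no spot there. Bright spots within 8 rows and 4 columns had a median log2 fold change of 2.60 around the upstream Lrp6 probe (56 spots) and 2.13 around the downstream one (47 spots). The unnormalized mean intensity of the upstream spot was 333, 378 and 366 in 1G11-mock and 756, 450 and 1520 in 1G11-SOD3. The surface at that spot, the shift of its bright neighborhood against the mean of the arrays, was -0.39, -1.40 and -1.84 in 1G11-mock and 1.38, 0.66 and 1.77 in 1G11-SOD3. After position adjustment the upstream probe stood at -0.48 (adjusted p = 0.4371) and the downstream probe at 0.63 (adjusted p = 0.3143). The surface was estimated on bright spots, and the upstream probe was not above background in 1G11-mock. Leaving out each array in turn gave log2 fold changes of 1.18 to 1.90 for the upstream probe, which kept its call only without 1G11-SOD3 replicate 2 (adjusted p = 0.01273) and lost it without any other single array. Over the same fits the downstream probe ran from 1.35 to 2.96 and was called only without 1G11-mock replicate 1 (adjusted p = 0.007103).

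**Figure D4:**
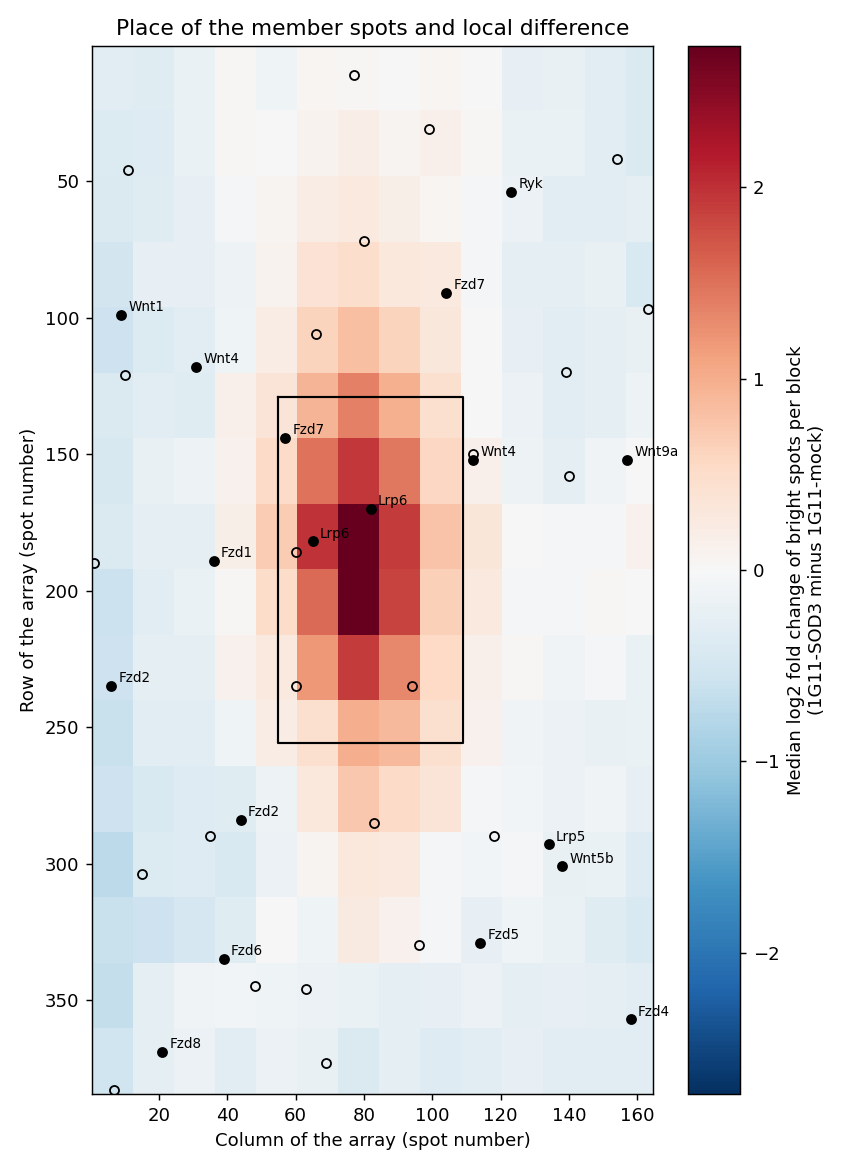
Place of the 42 member spots on the array (filled, named: above background on all arrays of at least 1 line; open: not) over the median log2 fold change of bright spots, 1G11-SOD3 minus 1G11-mock, in blocks of spots. The box marks the rectangle in the middle. Block medians reach 2.74 in the box, where both Lrp6 spots and 1 Fzd7 spot lie, and go down to -0.72 outside it.

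Lrp5, the related coreceptor, read 11.36, 11.55 and 11.04 in 1G11-mock and 10.75, 11.26 and 10.99 in 1G11-SOD3, and Ryk read 12.21, 12.45 and 11.79 against 12.65, 12.35 and 12.28. Both overlapped between the lines. The log2 fold change was -0.32 for Lrp5 (95% interval -0.84 to 0.21, adjusted p = 0.6141, limma) and 0.28 for Ryk (-0.26 to 0.81, adjusted p = 0.6724, limma). With position adjustment these stood at -0.16 and 0.37.

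The other genes of the pathway were taken from lists by role and set beside the members. The proteins that lipidate, carry and deacylate the ligands (Porcn, Wls and Notum) were detected in both lines, with 0 of 3 probes called and log2 fold changes of -0.09, -0.18 and -0.65. Of 9 genes that control receptor turnover, 2 were above background on all arrays of a line, and 1 of 9 probes was called, against 2.92% of all probes. This was Rnf43, a ubiquitin ligase that removes Frizzled from the surface. Its probe was above background on 2 1G11-mock arrays and no 1G11-SOD3 array and read 8.19, 8.46 and 8.19 against 6.70, 7.09 and 6.98. The measured values differed by -1.36 on the log2 scale (adjusted p = 0.00806, limma), and by -1.20 with position adjustment (adjusted p = 0.02755, limma).

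Of 17 probes for 13 other receptor partners 2 were called, both higher in 1G11-SOD3, against 2.92% of all probes. Prickle1, a planar cell polarity protein, rose by 1.40 on the log2 scale (adjusted p = 0.01611, limma) and by 1.93 with position adjustment. Gpc4, a heparan sulfate proteoglycan, was at least 2.17-fold higher (adjusted p = 0.004439, limma), but its spot lay in the middle and stood at 0.08 on the log2 scale after adjustment. Reck and Adgra2, which in brain endothelium form the receptor complex for Wnt7 ligands, were not called. Both Reck spots lay in the middle, and the probes were above background on no 1G11-mock array. Their measured values differed by 0.57 and -0.18 on the log2 scale, and by -0.40 and -1.04 after position adjustment. Adgra2, outside the middle, differed by -0.13 and, after adjustment, by 0.39.

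Inside the cell, 2 of 43 probes for 27 genes were called, against the same 2.92%. Tcf7l1, a DNA-binding partner of β-catenin, was higher by 2.19 on the log2 scale (adjusted p = 0.03035, limma) with its spot in the middle, and by 0.36 after adjustment. Tle1, a corepressor, was lower with a log2 fold change of -1.06 (adjusted p = 0.04692, limma) for 1 probe, and -0.82 (adjusted p = 0.05508) after adjustment. The other Tle1 probes, at -0.80, -0.79 and -0.22, were not called (adjusted p = 0.1231, 0.1386 and 0.7197, limma). Ctnnb1, β-catenin itself, read 13.90, 14.26 and 12.89 in 1G11-mock and 14.13, 14.45 and 14.81 in 1G11-SOD3 and was not called (log2 fold change 0.78, adjusted p = 0.3226, limma). Of its 2 spots 1 lay in the middle, and the difference was 0.09 after position adjustment (adjusted p = 0.8736). Neither of the Lef1 probes was above background on any array.

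Among 26 probes for 18 genes known as targets of the pathway, 3 were called higher and 1 lower, against 1.86% and 1.05% of all probes. Position adjustment left 2 higher and 0 lower calls in this list. Axin2, the target in widest use as a readout of β-catenin signaling, had a pair of probes that were above background on no array. Ccn5 rose by 3.64 on the log2 scale outside the middle and by 3.97 with position adjustment. Ccnd1 and Id2 had their called spots in the middle, where log2 fold changes of 2.69 and 2.98 became 0.91 and 1.38 after adjustment. Id2 was still called (adjusted p = 0.03369, limma), and Ccnd1 was not (adjusted p = 0.2361, limma). Nkd2, an inhibitor of the pathway, was lower at -1.09 (adjusted p = 0.02594, limma) and stood at -0.40 after adjustment. The median log2 fold change of the target list was -0.01, against -0.03 over all probes, and the lists share their arrays with the members, so that none of these counts is independent of them.

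**Figure D5:**
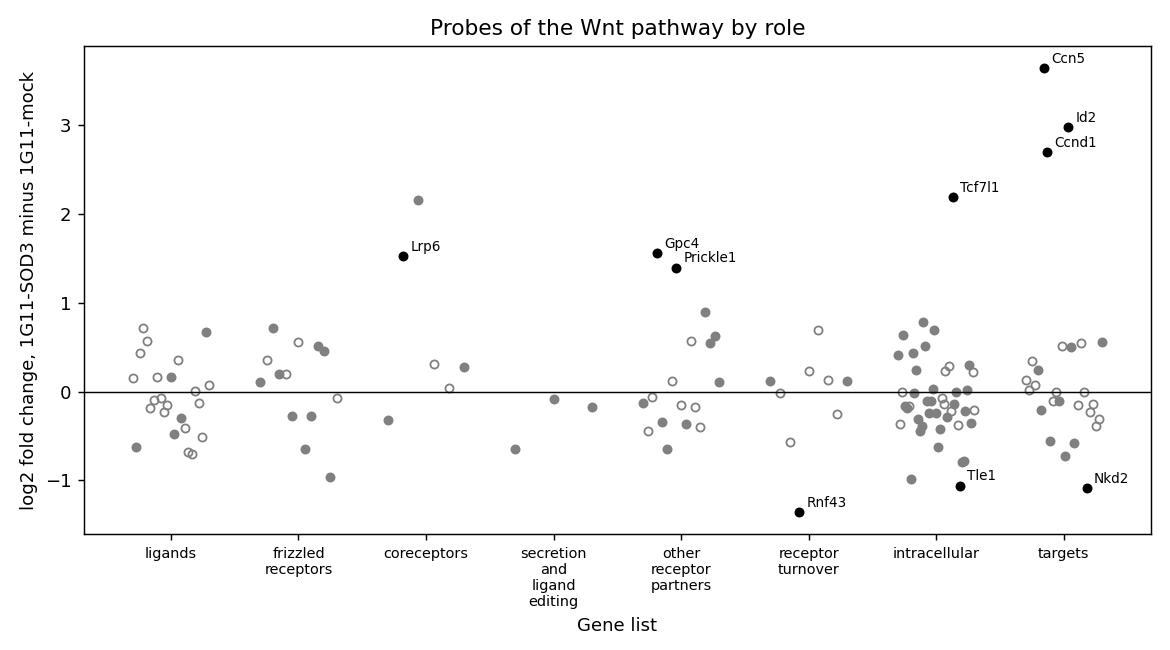
Log2 fold change, 1G11-SOD3 minus 1G11-mock, of every probe of the Wnt ligands, receptors and other genes of the pathway, by list. Black points with names are called probes, gray points were not called but were above background on all arrays of at least 1 line, and open points were neither. The members have 1 named point, Lrp6, and the highest point of the plot is Ccn5 at 3.64.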

How the data were processed

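RNA of 3 biological replicates of 1G11-mock and 3 of 1G11-SOD3 was labeled with Cy3 and measured on 6 Agilent SurePrint Mouse G3 arrays, 1 color each. For each array the authors deposited the Agilent Feature Extraction 10.7.3.1 output, with the mean and local background intensity of every spot, not normalized between arrays. They also deposited a table of log2 values, background corrected with normexp and quantile normalized, which served as an alternative.

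Mean intensities were corrected against the local background median (normexp, offset of 50), control spots were removed, spots flagged as outliers were left out, and values were taken to log2, quantile normalized and averaged over the spots of a probe. Lines were compared with limma 3.58.1 in R 4.3.3 over 55681 probes with Benjamini-Hochberg adjustment. A called probe had an adjusted p under 0.05 and a fold change over 2. With 3 arrays per line the smallest p of an exact permutation test is 0.1 (2-sided), and the number of arrays limits the precision. Well above background is the scanner software's flag. The position adjustment took off each array the running median, over 16 rows and 7 columns to each side, of the deviation of bright spots from the mean of the 6 arrays. Where a probe was above background on no array of one line and on all 3 of the other, the fold is a bound against the lowest signal among probes above background. Such a bound compares line means and is not a confidence limit. No bound is given where the other line was above background on only some of its arrays. Of all probes 27656 were named through a RefSeq accession in a gene table (GRCm38.p6, names only) and 952 through the description, and 27073 have no name here. Figures and probe alignments used Python 3.11.15.

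Replicate numbers of the labels were checked for pairing. Deviations from the line means correlated at 0.200, 0.141 and 0.138 between same-numbered arrays over 19722 probes, all above 0.1, and the fit with the replicate block is given where it changes a call. The fit and the position adjustment were tested on simulated data. All 34 members are reported with every probe, values on each array being given for probes above background on all arrays of a line. Of the pathway lists, called genes, Ctnnb1, Axin2, Lef1, Reck and Adgra2 are named, and Porcn, Wls and Notum were named after their values were seen. Members, lists and the region in the middle were chosen with earlier results of these data known. Alternatives were no background correction, an offset of 16, the processed signal or the corrected intensities scaled to the 75th percentile, cyclic loess, dim probes left out, outlier spots kept, the replicate block, the deposited table, the middle left out, position adjustment, each array left out in turn and other detection flags. The position adjustment with dim probes left out and calls without a fold threshold were chosen after seeing the data.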

Additional observations from a re-analysis of the deposited data

How the results depend on the processing

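Of the 42 member probes 1 was called (1 higher, 0 lower), and the count was 0 without background correction, with an offset of 16, with cyclic loess, with the middle left out (36 probes tested) and with position adjustment, with or without dim probes. It was 2 (2 higher) with the replicate block, against 4.02% of all probes, 2 with no fold threshold (1 higher, 1 lower), against 3.05%, 3 with scaling to the 75th percentile (2 higher, 1 lower), against 4.69%, and 7 with the processed signal (1 higher, 6 lower), against 19.9% (17.7% lower). The lower call under percentile scaling was Wnt7a, above background on no array. Percentile scaling and the processed signal moved the median log2 fold change of all probes to -0.33 and -0.52. The 6 lower calls (Fzd9, Wnt6, Wnt7b, Wnt8a, Wnt8b and Wnt16) came from probes above background on at most 1 array. Leaving out each array in turn gave 0 to 1 member calls (0 to 1 higher, 0 lower). The count was 1 with dim probes left out, outlier spots kept or the deposited table.

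The other pathway probes, targets not counted, come from lists of 3, 17, 9 and 43 probes. They gave 5 calls (3 higher, 2 lower), against 2.92% of all probes. They gave 2 (2 higher, 0 lower) without background correction, against 1.9%, and 10 (4 higher, 6 lower) with the processed signal, against 19.9%. The count was 2 (1 higher, 1 lower) with the middle left out, against 1.69%, and with position adjustment, against 3.77%. With position adjustment and dim probes left out it was 1 (1 higher, 0 lower), against 4.97% of the probes tested. With an offset of 16, 75th percentile scaling, cyclic loess, dim probes left out or the deposited table it was 4 (3 higher, 1 lower). The shares of the probes tested were 2.15%, 4.69%, 2.65%, 9.11% and 2.88%, in that order. Leaving out each array gave 2 to 5 calls (1 to 3 higher, 1 to 2 lower), against 1.37% to 3.19% of all probes. Beyond the downstream Lrp6 probe the replicate block changed no member call.

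The upstream Lrp6 probe reversed to -0.48 with position adjustment, with and without dim probes. It kept its direction but not its call without background correction (1.09), with an offset of 16 (1.70), with the processed signal (1.41) and with cyclic loess (1.50). The downstream Lrp6 probe was called at 2.19 with 75th percentile scaling (adjusted p = 0.00187). The cause was not tested. Among detected members outside the middle only Wnt9a, on the processed signal, and Fzd8, with no fold threshold, changed their call. Above background on at least 2 of 3 arrays were 13 genes in both lines, 13 in 1G11-mock and 14 in 1G11-SOD3, and with the flag for positive and significant signal these were 14, 16 and 17. Signal over background limits all comparisons of dim probes.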
